A study of Mus musculus with 20 samples.

Results

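Binding sites of CTCF were placed against the expression of the genes around them in wild-type mouse embryonic stem cells. A site was kept where the deposited peak lists of both wild-type CTCF libraries held a peak and the peaks overlapped by at least 1 bp. This gave 33267 CTCF regions of 42010 in either wild-type list and 54729 over all lists of the series. Genes were sorted by the mean FPKM (sequenced fragments per kilobase of a transcript, relative to the library's size) of the 2 wild-type RNA libraries into 5 classes, namely 0, above 0 and under 1, 1 to 10, 10 to 100 and above 100. Genes at 1 FPKM or more are called expressed here. Genes at 0 are said to be listed at 0, since such a gene may also be below detection. Genes whose estimate was flagged as failed were left out.

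The cells came from a wild-type line of 129 background, grown on growth-arrested mouse embryonic fibroblasts with serum and LIF, the cytokine that keeps these cells undifferentiated. Fibroblasts were reduced by repeated plating before the cells were used. CTCF was measured by ChIP-seq (sequencing of DNA pulled down with an antibody) in 2 libraries, and polyadenylated RNA by RNA-seq in 2 libraries, all of the wild type. Libraries of cells without the glycosylase TDG were not used, and no genotypes were compared. The wild type may be a single line, and nothing in the labels says that replicates were separate cultures, so the spread between replicates may be technical.

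CTCF is a zinc finger protein that binds a long DNA motif with its array of fingers. Together with cohesin, the ring-shaped complex that extrudes DNA loops, it holds the bases of chromatin loops and marks the borders of folded domains. Most of its sites lie away from gene starts, but it also binds promoters, and it is best known for insulating genes from enhancers, as at imprinted loci, the Hox clusters and the antigen receptor loci, and for the choice of promoter in the clustered protocadherins.

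The genes listed as markers of embryonic stem cells matched the label. All 20 were measured, 10 between 10 and 100 FPKM and 10 above 100. Pou5f1, the transcription factor that defines pluripotency, had 1509 and 1572 FPKM. RNA of genes listed as fibroblast markers was present as well, and which cells it came from was not measured. Of 20 fibroblast markers 12 reached 10 FPKM, all 20 were higher in RNA replicate 1, and their summed FPKM was 705.4 there against 509.7 in replicate 2. Vim, a filament protein of fibroblasts and many other cells, was the highest at 248.4 and 203.7 FPKM, and the collagen gene Col1a1 had 36.6 and 21.7 FPKM. Some genes classed as expressed may therefore be expressed by feeder cells, and the part of this in the results was not tested. The blood gene Hbb-bs, a beta globin, had 8.81 FPKM in replicate 1 and 0.220 in replicate 2, so its class depended on 1 library. Over the genes with a locus of their own, 93.2% were in the same class in both RNA libraries.

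The wild-type CTCF lists held 38303 and 37099 peaks, and 87.0% and 89.9% of them lay in regions of both lists. Peaks found in 1 list alone had low scores. Within list 1 the median score percentile was 56.6 for peaks in both lists and 10.6 for the others, and within list 2 it was 55.0 and 11.5. The score is the authors' own value per peak and was used only as a rank within its list. The X chromosome stood apart, with 717 regions in list 1 alone, 183 in list 2 alone and 783 in both. On the Y chromosome 1486 of 1496 genes were listed at 0.

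Positions of genes came from the deposited gene table, in which 42.8% of genes shared a span with other genes. The main values below use the 26823 genes, of 46939, that had a locus of their own, and RefSeq ends are given beside them where they matter. A gene was said to have CTCF at an end when a region reached within 1 kb of either end of its locus.

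Before the counts, 5 promoters are shown, 1 for each expression class. In each class it is the promoter that overlapped the best-ranked region among those with a match to the core of the CTCF motif, searched on both strands. The core searched for is 12 letters long, with some positions left free. Each run has 120 bases, lies before the RefSeq start of the gene and reads 5′ to 3′ on the gene's strand, from RefSeq on GRCm38.p6. Capitals mark the match.
Gm17382 (listed at 0 FPKM), chr17:26886329-26886448, minus strand: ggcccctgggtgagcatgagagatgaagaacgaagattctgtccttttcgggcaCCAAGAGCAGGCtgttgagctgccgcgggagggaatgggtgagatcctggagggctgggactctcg
Car7 (0 to 1 FPKM), chr8:104534580-104534699, plus strand: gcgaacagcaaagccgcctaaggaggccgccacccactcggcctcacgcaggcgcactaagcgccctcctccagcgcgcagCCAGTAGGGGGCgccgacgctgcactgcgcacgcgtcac
Lsm11 (1 to 10 FPKM), chr11:45944973-45945092, minus strand: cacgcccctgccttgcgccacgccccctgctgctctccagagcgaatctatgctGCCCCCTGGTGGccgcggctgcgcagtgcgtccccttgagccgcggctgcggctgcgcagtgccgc
Adprhl2 (10 to 100 FPKM), chr4:126321704-126321823, minus strand: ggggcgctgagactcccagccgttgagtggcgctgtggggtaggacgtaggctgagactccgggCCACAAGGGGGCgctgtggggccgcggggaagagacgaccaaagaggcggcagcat
Nsfl1c (above 100 FPKM), chr2:151494062-151494181, plus strand: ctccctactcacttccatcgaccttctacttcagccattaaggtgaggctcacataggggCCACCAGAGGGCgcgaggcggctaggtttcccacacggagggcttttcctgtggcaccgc

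The matches lay close to the middle of their regions, at 8 to 30 bases from the centre. In Lsm11, a component of the U7 particle that processes histone messages, the match is on the other strand and is printed as it reads on the gene's strand. Its region ranked at the 99.67 percentile of list 1 and 99.55 of list 2, and the gene had 3.04 and 2.95 FPKM. Car7, a carbonic anhydrase, had a region at the 99.48 and 97.65 percentiles with 0.301 and 0.326 FPKM. Adprhl2, which removes ADP-ribose from serines, had a region at the 99.95 and 99.75 percentiles with 24.9 and 23.5 FPKM. Nsfl1c, an adaptor of the p97 ATPase, had a region at the 99.97 and 99.92 percentiles with 140.7 and 137.8 FPKM. The region at Gm17382, a predicted gene, stood at the 97.08 and 93.83 percentiles while its RNA was listed at 0 in both libraries. These promoters were picked within each class for the rank of their region, so their ranks are a description.

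CTCF was rare at the ends of genes listed at 0 and about equally frequent at the ends of genes from 1 FPKM up. Of the 26823 genes 9.81% had CTCF at an end. Among genes listed at 0 it was 609 of 15475, or 3.94% (exact 95% binomial interval 3.63 to 4.25). Between 0 and 1 FPKM it was 771 of 5384, or 14.3% (13.4 to 15.3). From 1 to 10 FPKM it was 21.2% (19.6 to 22.8), from 10 to 100 FPKM 20.3% (18.8 to 21.8) and above 100 FPKM 23.4% (19.9 to 27.1). All expressed genes together had 1250 of 5964, or 20.96% (19.9 to 22.0). The intervals of the 3 upper classes overlapped one another and none reached those of the lower classes. Intervals cover counting error only and treat genes as independent, which neighbours sharing a region are not.

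Each peak list taken alone gave the same order. With list 1 and list 2 the share was 4.43% and 4.32% for genes listed at 0, a mean of 4.37% ± 0.0777 (SD, n = 2 lists). For expressed genes it was 23.8% and 21.8%, a mean of 22.8% ± 1.36 (SD, n = 2 lists). The gap between these groups was many times the spread between lists. No test was made, since genes are not replicates of a condition. With RefSeq ends the shares were 5.29%, 15.7%, 20.9%, 19.96% and 21.4% from the lowest class to the highest.

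Finer bins, chosen after seeing the data, placed the step at the low end of the scale. The share was 11.8% (10.7 to 13.0) for genes above 0 and up to 0.1 FPKM, 17.0% from 0.1 to 0.3 and 18.3% from 0.3 to 1. It then stayed between 19.3% and 22.0% in every bin from 1 to 1000 FPKM. On the lower side of 1 FPKM (from 0.5) it was 18.5% (15.7 to 21.7), and on the upper side (up to 2) 19.4% (16.4 to 22.5). At 10 FPKM the pair was 21.6% below and 18.2% above, and at 100 FPKM 21.5% and 20.5%, with overlapping intervals at each boundary. The genes on either side of the highest boundary were Actr2, part of the actin-nucleating Arp2/3 complex, with 95.7 and 104.3 FPKM, and Polr2k, a small RNA polymerase subunit, with 98.7 and 100.8 FPKM. Neither had CTCF at an end.

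**Figure D1:**
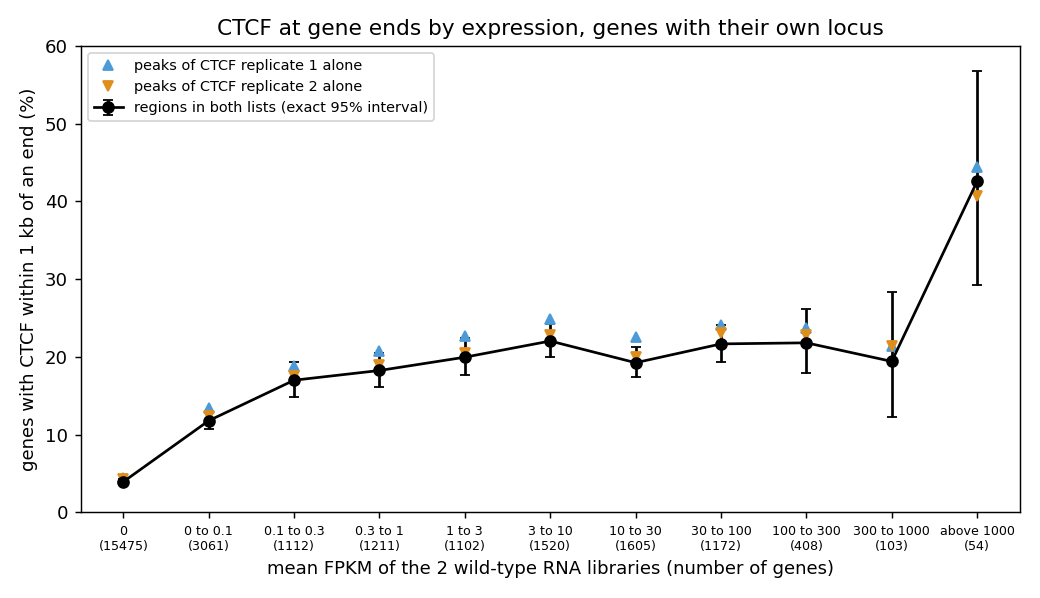
Share of genes with a CTCF region within 1 kb of a locus end (y axis, %) in bins of mean wild-type FPKM (x axis, number of genes in brackets). Black points with exact 95% intervals are regions of both lists, and triangles are each list alone. The share is 3.94% at 0 FPKM, near 20% from 1 to 1000 FPKM and 42.6% in the 54 genes above 1000.

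Among expressed genes the level of RNA did not separate those with and without CTCF at an end. The 1250 with it had a median of 12.6 FPKM in RNA replicate 1 and 12.4 in replicate 2, and the 4714 without it 12.6 and 12.8. By length, the medians in replicate 1 were 17.5 with and 14.2 without CTCF at 1 to 10 kb, and 12.2 with and 13.1 without at 10 to 100 kb. The direction thus differed between short and long genes.

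The bin above 1000 FPKM was the exception, with 23 of 54 genes or 42.6% (29.2 to 56.8). Of these genes 32 encode cytosolic ribosomal proteins, and 16 of them had CTCF at an end, or 50.0% (31.9 to 68.1). In the other 22 it was 7, or 31.8% (13.9 to 54.9), and from 100 to 1000 FPKM it was 21.3% (17.9 to 25.1). With RefSeq ends the bin held 111 genes at 34.2% (25.5 to 43.8). This bin was picked after its value was seen.

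Among genes with a locus of their own, the 6 of the highest RNA levels nevertheless lacked CTCF at an end. Dppa5a, a stem cell gene, had 4515 and 5099 FPKM and its nearest region lay 8.66 kb away. Rps24, Rps27, Rplp1 and Rpl41, which encode ribosomal proteins, and Ppia, the chaperone cyclophilin A, had means between 3796 and 4223 FPKM with the nearest region 1.47 to 6.52 kb away. Several of these have many near-identical copies in the genome, so their FPKM is uncertain. All 6 were outside the 1 kb window, and none held a region inside its locus.

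The best-ranked regions at gene ends were looked up within each class. Exd1, a gene for germline small RNAs, had 0.625 and 0.586 FPKM, and its neighbour Chp1, an EF-hand protein, had 26.2 and 26.6 FPKM. Both touch a single region on chromosome 2 (119546893 to 119547419, mm10) at the 99.98 percentile of each list, which lies inside the Exd1 locus and 0.278 kb from that of Chp1. One strong site was therefore counted in an unexpressed and an expressed class. Among genes listed at 0, Gm13413 had a region at the 99.64 and 99.77 percentiles, 0.769 kb from its locus.

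Other genes below 1 FPKM with a region of such rank were Gdf15, a stress cytokine, at 0.802 and 0.502 FPKM, Cdsn, a protein of skin desmosomes, and Rilp, an effector of lysosome transport. From 1 to 10 FPKM they were Myrf, a myelin transcription factor, at 3.97 and 4.97 FPKM, Cacnb3, a calcium channel subunit, H2-DMa, which loads MHC class II, and Acbd4, an acyl-CoA binding protein. From 10 to 100 FPKM they were Med4 of the Mediator complex, at 51.5 and 55.7 FPKM, and Gins4 of the replicative helicase, at 61.6 and 63.1 FPKM. Above 100 FPKM they were the ribosomal protein gene Rpl22, at 1577 and 1623 FPKM, the splicing factor Rbm17, at 168.4 and 180.5 FPKM, and Cd63, a tetraspanin, at 107.7 and 103.8 FPKM. The lowest percentile of these in either list was 99.05, for Cd63 in list 1. The other named genes listed at 0 ranked somewhat lower, with 4930478P22Rik at the 98.86 and 99.66 percentiles, Gm13288 at 98.35 and 98.49 and Gm13289 at 99.59 and 97.52. These genes were picked within each class for the rank of their region, so their ranks are a description.

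Over all genes with CTCF at an end, the median rank of that region was lowest for genes listed at 0, by less in list 2 than in list 1. The median percentile in list 1 was 56.4 at 0 FPKM, 67.5 from 0 to 1, 68.4 from 1 to 10, 70.4 from 10 to 100 and 77.2 above 100. In list 2 it was 56.5, 63.4, 59.6, 64.1 and 63.9. The order among genes above 0 seen in list 1 was not the order in list 2. The share of regions at ends that both lists held was 78.5%, 82.8%, 82.1%, 79.8% and 86.2% from the lowest class to the highest, with no steady order, against 79.2% of all regions.

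A longer locus has more room for sites, so regions inside the locus were read within bands of length. Over all 26823 genes 16.9% held a region. Among loci of 10 to 100 kb it was 246 of 1598 genes listed at 0, or 15.4% (13.7 to 17.3), and 42.8% (40.7 to 45.0) from 0 to 1 FPKM. The classes from 1 FPKM up had 51.0% (48.6 to 53.5), 46.6% (44.3 to 48.8) and 44.3% (38.4 to 50.2). Per 100 kb of these loci there were 0.733 regions at 0 FPKM, 2.17 from 0 to 1, and 2.56, 2.25 and 2.67 in the upper classes. Loci of 1 to 10 kb had 3.44% at 0 FPKM and 22.9% in expressed genes, and loci over 100 kb had 46.2% and 81.0%. Genes listed at 0 were lowest in each of these 3 bands. In loci under 1 kb, which hold 9279 of the genes listed at 0, no such step was seen, with 1.56% (1.32 to 1.84) at 0 FPKM and 2.198% (0.267 to 7.71) in the 91 expressed genes. In the 10 to 100 kb band the share was highest from 1 to 10 FPKM, and its interval overlapped those of both higher classes.

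**Figure D2:**
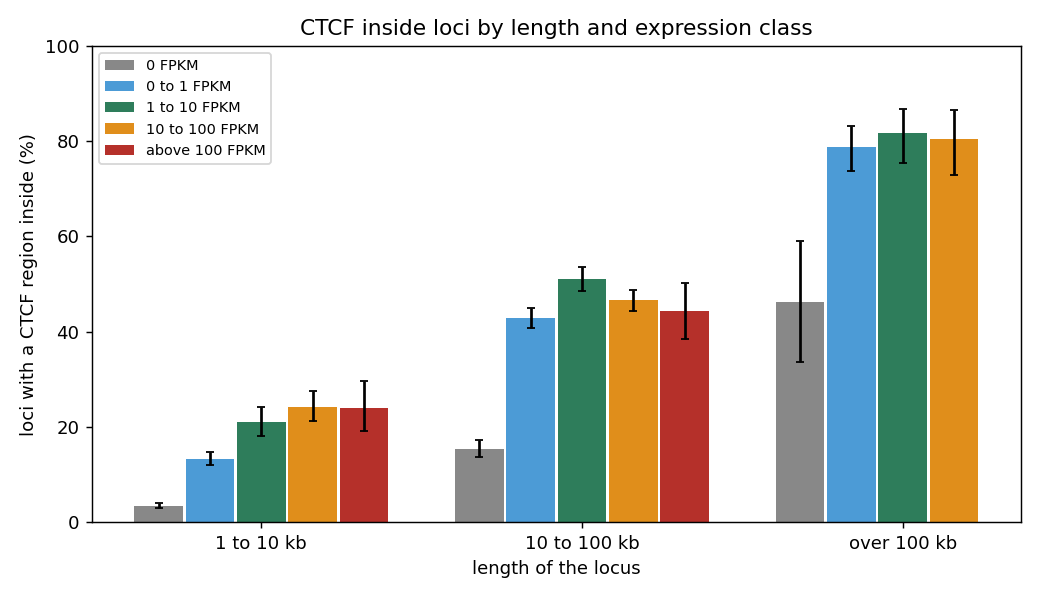
Share of loci with at least 1 CTCF region inside (y axis, %) for 3 bands of locus length (x axis) and 5 classes of mean wild-type FPKM (colours), with exact 95% intervals. Bars of fewer than 20 genes are left out. Genes at 0 FPKM are lowest in each band, at 15.4% against 42.8% to 51.0% at 10 to 100 kb.

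Among genes with a locus of their own, those with the most regions inside were not the most expressed. Firre, a long noncoding RNA of the X chromosome known for its repeats and CTCF sites, held 19 regions in 79.6 kb at 15.7 and 11.9 FPKM. Ank3, an ankyrin scaffold, held 17 in 493.7 kb, and Kalrn 15 in 599.3 kb, at means of 5.00 and 3.49 FPKM. Atxn1, the gene of a spinocerebellar ataxia, held 15 at 0.208 FPKM. B3glct, a glucosyltransferase gene, held 13 in 84.4 kb at 1.21 FPKM and was the only 1 of these 5 with CTCF at an end. Firre and B3glct reached these numbers in loci under 100 kb.

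At the other extreme stood genes above 100 FPKM far from any region. Eif3e, a subunit of translation initiation factor 3, had 321.0 and 336.8 FPKM with the nearest region 287.0 kb away. Zwint, a kinetochore protein gene, was 260.2 kb away at 123.3 and 126.2 FPKM. Ppp2r1a, the scaffold of protein phosphatase 2A, was 151.9 kb away at 196.1 FPKM in each library, and Hsd17b10, a mitochondrial dehydrogenase gene, 143.1 kb away at 101.4 and 100.6 FPKM. Eno1b was the farthest at 674.8 kb with 383.8 and 381.9 FPKM, but it is a near-identical copy of the enolase gene Eno1, so its FPKM is uncertain. High RNA was thus measured in genes with no CTCF region of both lists within 100 kb. Peaks of 1 list alone do not enter these distances. Hsd17b10 lies on the X chromosome, where 717 regions were in list 1 alone and 783 in both lists.

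The distance to the nearest region followed the same step. Its median was 62.6 kb for genes listed at 0 (quartiles 15.6 and 281.8), 7.42 kb from 0 to 1 FPKM, and 1.21, 1.41 and 2.49 kb in the upper classes. For genes listed at 0 the size depended on the genes used, with a median of 38.9 kb by RefSeq ends, 42.8 kb on the autosomes and 22.3 kb with all listed loci. A gene holding a region counts as distance 0, so locus length enters this value. Genes listed at 0 had short loci, with a median of 0.855 kb against 17.8 kb for expressed genes.

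CTCF was more frequent at the start of genes than at their far end. Among 15041 genes over 4 kb with a RefSeq strand, 10.9% had CTCF within 1 kb of the start and 6.80% within 1 kb of the far end. In expressed genes it was 13.5% (12.7 to 14.2) at the start and 7.76% (7.19 to 8.36) at the far end. In genes listed at 0 it was 4.46% (3.68 to 5.35) and 3.44% (2.76 to 4.24), where the intervals overlap. In list 1 alone expressed genes had 15.7% and 8.52%, and in list 2 alone 14.1% and 8.09%.

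Around the start the centres of regions gathered in the 500 bp before it in every class. There were 14.3 centres per 1000 genes in that bin at 0 FPKM (23 centres in 1611 genes), 34.1 from 0 to 1, 52.3 from 1 to 10, 61.2 from 10 to 100 and 65.5 above 100 (30 centres in 458 genes). Between 5 and 10 kb before the start there were 6.08 per 1000 genes and 500 bp at 0 FPKM, and 12.1, 15.7, 13.8 and 16.2 in the other classes. The bin before the start was 2.35 times this far level at 0 FPKM and 4.45 times from 10 to 100 FPKM. In the first 500 bp inside the gene the values were 9.93, 24.2, 31.5, 24.5 and 17.5, so the excess lay mostly before the start. These genes were all over 10 kb long.

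**Figure D3:**
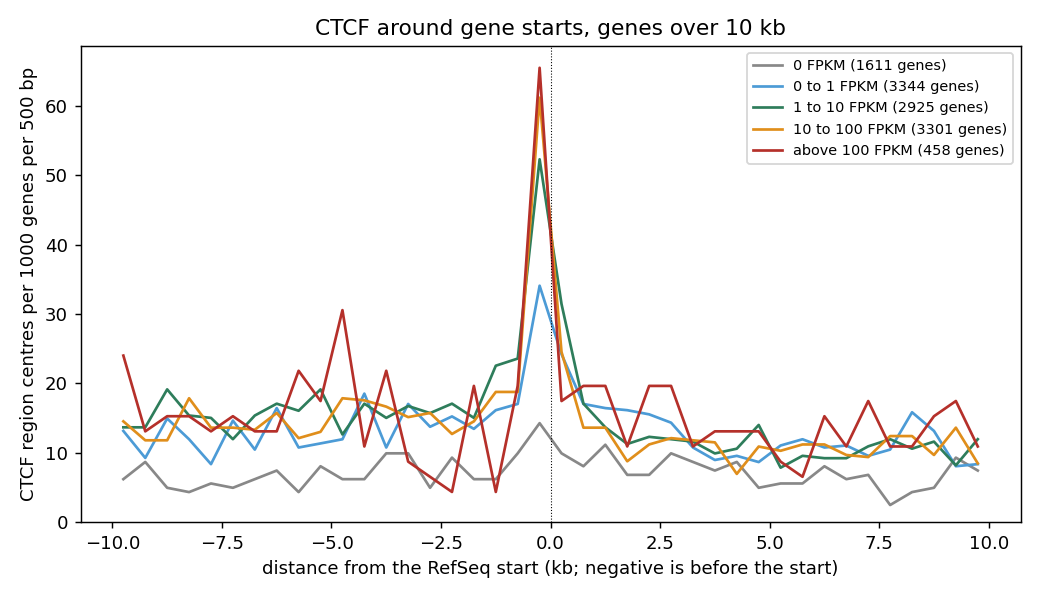
Centres of CTCF regions per 1000 genes in bins of 500 bp (y axis) by distance from the RefSeq start in kb (x axis, negative before the start) for genes over 10 kb in 5 classes of mean wild-type FPKM. The highest bin of every class is the 500 bp before the start, from 14.3 at 0 FPKM to 65.5 above 100. The line above 100 FPKM rests on 458 genes and is ragged.

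The promoter sequences were set beside this pattern. RefSeq windows of 250 bases before to 50 after a start were matched to 18607 genes, in 22672 windows. Of these 4.94% overlapped a CTCF region and 2.40% held the letters of the core motif on either strand, against 2.43% of all 32851 promoter windows of that length. A region was found on 1.08% (0.807 to 1.40) of windows of genes listed at 0, 4.24% from 0 to 1 FPKM, 6.49% from 1 to 10, 7.23% from 10 to 100 and 8.08% (6.52 to 9.87) above 100. The letters were found in 1.12%, 2.64%, 2.76%, 2.68% and 3.81%. With 1 more letter of the core left free, 3.02% of windows of genes listed at 0 and 12.97% of those of expressed genes held a match, against 1.08% and 6.995% with a region. For the stricter letters the shares were 1.12% and 2.82%. In percentage points, whether regions or matches differed more between these classes thus depended on the motif. As a ratio, regions differed more than matches with either motif.

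Windows with a region held the letters in 174 of 1119 cases, or 15.6% (13.5 to 17.8), and windows without one in 1.72% (1.55 to 1.90). Read the other way, a region lay on 32.0% (28.1 to 36.1) of windows with the letters and on 4.27% without. Among windows with the letters it was 8 of 55 at 0 FPKM, or 14.5% (6.49 to 26.7), and 116 of 321 in expressed genes, or 36.1% (30.9 to 41.7). Among windows without the letters it was 0.923% and 6.15%. The base composition moved with the classes, with a median GC content of 45.0% at 0 FPKM, 54.3% from 0 to 1 and 60.7% to 61.3% above, and its part in these shares was not tested. A match is only a run of letters, and most windows with a region held none. Parts of a region outside its window were not searched.

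The classes differed by kind of gene as well. Protein-coding genes had CTCF at an end in 2.77% at 0 FPKM, 15.3% between 0 and 1 FPKM and 21.2% when expressed. Long noncoding RNA genes had 9.13% (7.21 to 11.3) at 0 FPKM, 19.7% (16.2 to 23.5) between 0 and 1 FPKM and 15.6% (8.32 to 25.6) when expressed, the last from 77 genes and overlapping the first. Pseudogenes had 2.60% at 0 FPKM, 6.05% (4.27 to 8.28) between 0 and 1 FPKM and 2.94% (0.0744 to 15.3) when expressed, the last from 34 genes. Among these 3 kinds, the intervals at 0 FPKM and for expressed genes were apart in protein-coding genes only. Small nuclear, small nucleolar and micro RNA genes listed at 0, whose products are mostly not polyadenylated and so are not measured by this library type, had 5.01%, 6.23% and 5.81%. A value of 0 FPKM therefore does not show that such a gene is off.

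Receptor gene families made up part of the class at 0 FPKM. Olfactory and vomeronasal receptor genes, which are used in sensory neurons and lie in large clusters, had CTCF at an end in 13 of 1656 such genes, or 0.785% (0.419 to 1.34). Without these and without the V segments of antigen receptors, 3.98% (3.66 to 4.33) of 13500 genes listed at 0 had it. Protein-coding genes listed at 0 on the autosomes, without the receptor families, had 5.10% (4.06 to 6.32) of 1549. Among protein-coding genes the share at 0 FPKM was thus 2.77% with the receptor families and the sex chromosomes and 5.10% without them.

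V segments, the coding pieces that lymphocytes join to make antigen receptors, went the other way at 0 FPKM, with 58 of 319 or 18.2% (14.1 to 22.9). The share differed between loci, for which segments were taken by symbol, whatever their FPKM or RefSeq gene type. T cell receptor alpha segments (Trav) had CTCF at an end in 44 of 125, or 35.2% (26.9 to 44.2), and immunoglobulin heavy chain segments (Ighv) in 30 of 177, or 16.9% (11.7 to 23.3). Immunoglobulin kappa segments (Igkv) had 0 of 160, an exact upper bound of 2.28%, with a median distance to a region of 98.5 kb. T cell receptor beta segments (Trbv) had 3 of 30, and these were Trbv2, Trbv12-1 and Trbv12-2. Kappa had 0 in each list alone as well. Segments are short, with median loci of 0.434 to 0.533 kb, and neighbours can share a region. These groups were looked at after the share of V segments was seen.

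Among genes listed at 0, the share also depended on how near an expressed gene lay. It was 11.6% (9.95 to 13.4) for those within 10 kb of the locus of an expressed gene, 7.04% (6.06 to 8.12) at 10 to 50 kb, 3.86% (3.26 to 4.54) at 50 to 200 kb and 1.68% (1.41 to 1.98) beyond 200 kb. In list 1 the nearest and farthest groups had 12.7% and 1.89%, and in list 2 12.4% and 2.00%. The expressed genes themselves had 20.96%, but the groups were not matched for kind or length of gene. Genes on X and Y were not set apart. A region within 1 kb of the ends of 2 genes counts for both, and how often an expressed gene shared the region was not counted. Of the genes listed at 0 within 10 kb of an expressed gene, 14.2% were protein coding. Among expressed genes the share was 9.89% (4.62 to 17.95) in loci under 1 kb and 24.6% (22.6 to 26.7) at 1 to 10 kb. The group beyond 200 kb held 7987 of the 15475 genes, and its median distance to a region was 240.6 kb.

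Over the whole genome, regions were denser at the ends of loci than elsewhere. All listed loci were used here, so the ends of genes within a shared span count as inside. Windows within 1 kb of an end took 4.16% of the span considered and held 10.2% (9.84 to 10.5) of the regions. The inside of loci took 40.1% of the span and held 48.5%, and the space between loci took 55.7% and held 41.3%. This is 3.06 regions per 100 kb at ends, 1.51 inside and 0.927 between. Most CTCF regions of these cells were thus not at the ends of listed loci. Regions at ends also stood somewhat higher in the lists, at median percentiles of 64.0 and 59.2, against 55.7 and 53.6 inside loci.

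Neighbouring genes were compared to see whether a region between them went with a difference in expression. Of 21958 gaps between adjacent loci 24.5% held the centre of a region. In gaps of 10 to 50 kb it was 18.1% (17.1 to 19.02) where neither gene was expressed, 46.8% (44.5 to 49.2) where 1 was and 55.1% (50.8 to 59.3) where both were. In gaps of 50 to 100 kb it was 26.8%, 65.4% and 81.3%. In gaps under 1 kb it was 0.821%, 3.61% and 3.38%. In every band of gap length the share was lowest between 2 unexpressed genes. Between gaps with 1 and with 2 expressed genes the intervals overlapped at every length except 10 to 50 and 50 to 100 kb.

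**Figure D4:**
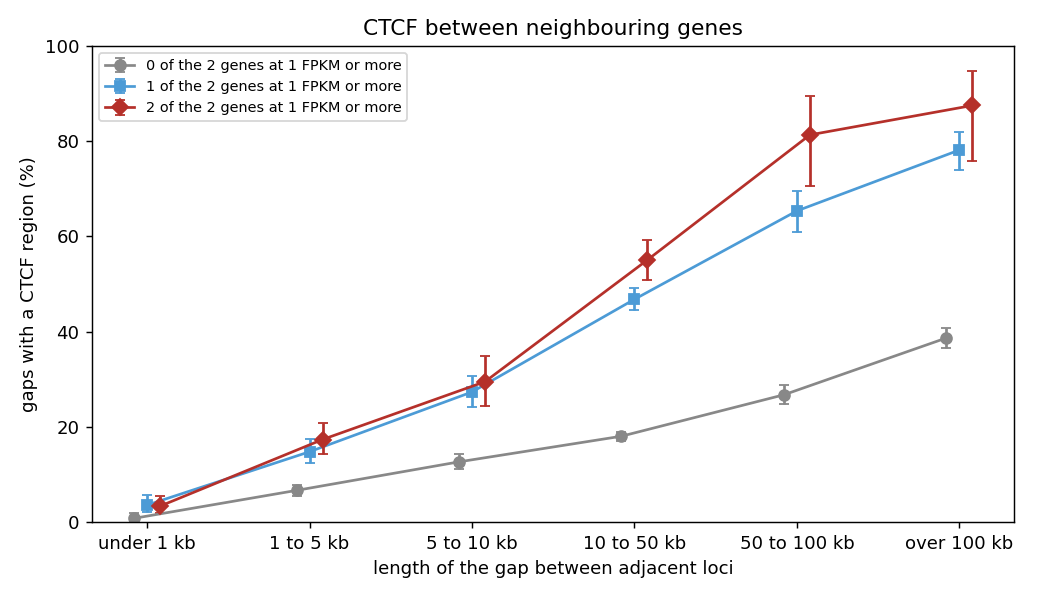
Share of gaps between adjacent loci that hold the centre of a CTCF region (y axis, %) by length of the gap (x axis), for gaps with 0, 1 or 2 genes at 1 FPKM or more, with exact 95% intervals. At 10 to 50 kb the shares are 18.1%, 46.8% and 55.1%.

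In gaps of 10 to 50 kb, a region hardly went with a larger difference in RNA level among pairs with an expressed gene. For all gaps of this length the median difference between neighbours was 0.54 with and 0 without a region, on the scale of log2(FPKM + 1). Most pairs without a region were both unexpressed. For pairs with at least 1 expressed gene it was 3.12 with (n = 1126) and 2.99 without (n = 1184). For pairs of expressed genes it was 1.72 with (quartiles 0.75 and 3.09, n = 298) and 1.78 without (0.72 and 3.26, n = 243). Among gaps of 10 to 50 kb with 1 or 2 expressed genes, those with a region had just 1 expressed in 73.5% of cases and those without in 79.5%. Other gap lengths were not all alike. For pairs with at least 1 expressed gene the medians over 100 kb were 3.39 with (n = 378) and 2.96 without (n = 99), and over all lengths 3.16 and 2.85. For pairs of expressed genes they were 2.199 with (n = 95) and 1.74 without (n = 452) at 1 to 5 kb, and 2.04 with (n = 61) and 0.68 without (n = 14) at 50 to 100 kb.

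Single pairs with very unequal RNA and a region between them can be named. Gsta2, a glutathione transferase gene, had 0.0454 and 0.0580 FPKM and lay 11.3 kb from Dppa5a, described above. The region between them (chromosome 9, 78358082 to 78358393) ranked at the 85.2 and 80.2 percentiles. Npm1, which encodes the nucleolar protein nucleophosmin, had 3612 and 3825 FPKM, and the predicted gene Gm12115 at 9.71 kb was listed at 0. Rnf222 had 0.0216 and 0.0353 FPKM and was 5.80 kb from the ribosomal protein gene Rpl26, at 3246 and 3467 FPKM, with 2 regions between them. Rps4x on the X chromosome, at 2377 and 2600 FPKM, was 19.01 kb from Gm14859, listed at 0, with 1 region between them. These pairs were chosen for the size of their difference, so that size is a description.

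Lists of genes with known roles were read with RefSeq ends, since most of the clustered families share a locus in the gene table. Over all 32991 genes placed by RefSeq 12.9% had CTCF at an end and 27.9% held a region inside. Among the expressed ones these shares were 20.5% and 48.15%. Of the 20 stem cell genes 1 had CTCF at an end, which was Tbx3, a T-box factor, with a low-ranking region (percentiles 28.5 and 3.17). List 1 alone gave 2 and list 2 alone 1. Regions inside were found in 10 of the 20, among them Pou5f1 with 1, Esrrb, an orphan nuclear receptor gene, with 3 and Klf4, a Krüppel-like factor gene, with 1. All 20 of these genes were expressed, and 19 of them lacked CTCF at their ends. The list is too small to set its share apart from that of all expressed genes.

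The genes of cytosolic ribosomal proteins had CTCF at an end in 30 of 78, or 38.5%, all 78 above 100 FPKM and with a median of 2237 FPKM. List 1 alone gave 30 and list 2 alone 31. The 36 regions involved had median percentiles of 63.2 and 63.0, against 64.0 and 59.2 for all regions at the ends of listed loci. Of 57 with a RefSeq strand 14 had CTCF at the start and 10 at the far end. Rpl38 had 3 regions at its ends (2382 and 2078 FPKM), Rpl11 had 2 (2028 and 2136 FPKM), and Rpl22 held the best-ranked. Rps12, which shares its locus in the gene table and had 4384 and 4635 FPKM, had none within 24.8 kb. The members with and without CTCF at an end are both among the most expressed genes of these cells.

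Of the enzymes of glycolysis 5 of 20 had it, named here after their values were seen as Gapdh, Pkm, Eno1, Aldoa and Tpi1. Gapdh, at 3333 and 3228 FPKM, had a region at the 12.1 and 35.1 percentiles, and Pkm, at 1414 and 1504 FPKM, had 2 regions at its ends. Of the genes of CTCF and cohesin and their partners 4 of 19 had it. These were the cohesin subunit genes Smc3 and Stag2, the cohesin regulator Pds5b and the acetyltransferase gene Esco1. Smc3 had 61.4 and 67.3 FPKM. Rad21, the cohesin subunit gene with the highest FPKM at 144.4 and 159.0, had no region within 50.5 kb.

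Of the fibroblast markers 5 of 20 had CTCF at an end, namely Col1a1, Col1a2, Pdgfra, Acta2 and Tagln. The region at Col1a1 ranked at the 94.96 and 86.9 percentiles. Whether such regions and such RNA come from the same cells was not measured. In the neural list 3 of 20 had it (Nes, Tubb3 and Olig2), in the blood list 2 of 18 (Spi1 and Klf1), and in the imprinted list 5 of 33 (Gnas, Mest, Mirg, Magel2 and Kcnk9). The regions at Spi1 and Klf1, master regulators of myeloid and red cells, ranked between the 94.2 and 99.5 percentiles. Klf1 had 0.0524 and 0.159 FPKM, and Spi1 1.27 and 1.20 FPKM. Olig2, a factor of the oligodendrocyte lineage, had 0 and 0.0147 FPKM and a region at only the 20.1 and 6.99 percentiles.

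The Hox genes, which lie in 4 clusters and set positions along the body axis, had 9 of 39 with CTCF at an end, all 9 of them under 1 FPKM, as were 35 of the 39. Hoxa5 and Hoxa6 share a region at the 95.4 and 83.3 percentiles. Hoxc10 had the highest-ranking region in list 1, at the 99.1 percentile, and 82.1 in list 2, with 0.599 and 0.316 FPKM. Hoxd10 and Hoxd11 lie side by side in their cluster, with regions at the 78.4 and 48.2 percentiles of list 1. Hoxb9 and Hoxc13, at 2.58 and 2.52 FPKM the highest of the list, had none at an end.

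The clustered protocadherins, cell-surface proteins of which each neuron uses a few, stood far above the share over all genes. Of 54 placed by RefSeq 51 had CTCF at an end, or 94.4%, and in each list alone 51 and 52. Of the 58 with an FPKM value, 9 were listed at 0, 46 lay between 0 and 1 FPKM, 2 from 1 to 10 and 1 from 10 to 100. Their median was 0.0281 FPKM. The 54 genes have 85 distinct ends, since variable exons share the constant exons downstream, and 55 different regions touched them. Pcdhgc3, the highest of the named members but not of the family, had 7.15 and 5.12 FPKM. Pcdhga1 and Pcdhga2, whose RefSeq spans cover much of their cluster, held 24 and 23 regions. CTCF binding at these promoters is known from earlier work. Most of these protocadherin genes thus had low RNA and CTCF at an end.

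The sensory receptors were at the low end, with 12 of 1274 olfactory receptor genes (0.942%) and 3 of 534 vomeronasal receptor genes (0.562%), the latter Vmn1r220, Vmn2r29 and Vmn2r-ps15. Their median distances to a region were 123.3 and 149.9 kb, against 9.83 kb over all RefSeq genes. Olfr985 had the highest RNA of its family, at 2.00 and 2.87 FPKM, with the nearest region 88.7 kb away. The replication-dependent histone genes, whose RNA is mostly not polyadenylated, were read in the gene table since the RefSeq table did not match their symbols. Of 45 with a locus of their own 7 had CTCF at an end, or 15.6%, against 9.81% of all genes with a locus of their own. The count is small.

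**Figure D5:**
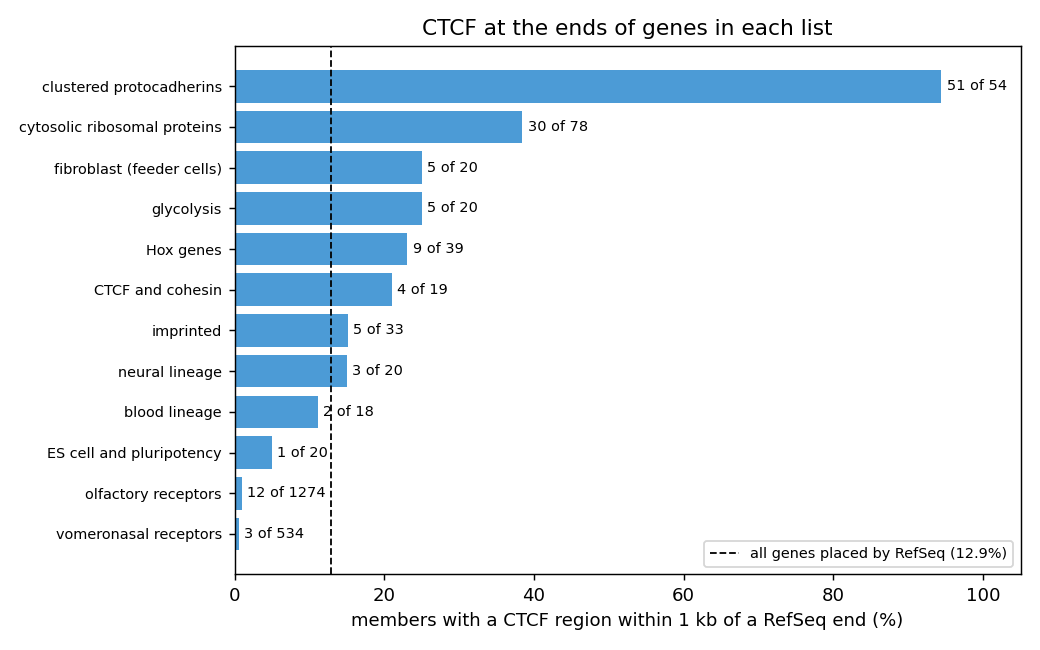
Share of the members of each list with a CTCF region within 1 kb of a RefSeq end (x axis, %; counts beside the bars). The dashed line is the 12.9% of all genes placed by RefSeq, of which the expressed ones had 20.5%. Protocadherins (51 of 54) and ribosomal proteins (30 of 78) lie above it and the sensory receptor families below it, while the smaller lists rest on a handful of genes.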

How the data were processed

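Per the file headers, the deposited RNA table holds FPKM per library, and the authors' gene table gives each gene's locus. The CTCF peaks were deposited as 1 list per library with the authors' score per peak, and no source used here says what the score measures. Tools listed in the submitters' processing notes, with no roles, are TopHat2 2.1.1, Cufflinks 2.2.1, Cuffdiff, Bowtie2 2.2.9, deepTools and MACS2 2.2.1, with the mm10 build. Read depth is unknown for both assays, so a gene listed at 0 may be below detection. Nothing used here says whether counting used strand, so overlapping, antisense and near-identical genes are uncertain.

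Peaks of the wild-type lists were merged at an overlap of 1 bp, and regions with a peak in both lists were kept. The 9 genes whose FPKM estimate failed or was capped were left out, among them Hsp90ab1. Loci shared by several genes span all of them. This was found on reading the table, so genes with a locus of their own became the main set. Of 46939 genes 70.3% were placed by symbol on RefSeq (GRCm38.p6), and 81.1% of the own loci found there had both ends within 1 kb of RefSeq's. Peak and locus starts count from 0 in the files and are printed 1-based. Intervals are exact (Clopper-Pearson) at 95% with scipy 1.17.1. The differences between neighbours used a pseudocount of 1 FPKM. No test was made. The counting was checked on simulated regions. The members and lists were chosen with earlier results of these data known. Genes named were the 4 with the best-ranked region in each class, the extremes of FPKM, region number and distance, 2 to 4 members of each list, the 4 most unequal neighbours, the genes beside the 100 FPKM boundary and 1 promoter per class. Predicted genes, pseudogenes and most list members are given by counts.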

Additional observations from a re-analysis of the deposited data

How the results depend on the processing

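The number of regions, shares at ends by class, regions inside loci, distance, neighbours and promoter letters were recomputed under other settings. This gave 119 values of 12 results. Of these, 70 were class shares, which like numbers of regions have no direction to change. No difference between groups changed direction. In size, 68 of the 119 values moved by the spread between the 2 CTCF lists or more, or by a set ratio for numbers of regions. The other 51 moved less. The other descriptions were not recomputed. In all 15 settings, the main one included, genes listed at 0 had the lowest share with CTCF at an end, genes between 0 and 1 FPKM the next, and the upper classes the highest. The class above 100 FPKM was highest in 14 of them, the exception being loci of 10 to 100 kb. The excess of expressed genes over genes listed at 0 was 17.0 percentage points. It was 36.8 with a window of 5 kb, 10.2 at RefSeq starts alone, 9.99 with the upper 50% of each list by score, 15.1 in loci of 10 to 100 kb, 12.6 with all listed loci, 15.2 with RefSeq ends and 18.5 in protein-coding genes. The last 3, leaving out X and Y, and the upper 50% for neighbours were chosen after seeing the data. Leaving out 1 CTCF or RNA library gave 16.8 to 19.3. The upper 50% of each list left 15770 regions. For loci of 10 to 100 kb holding a region the excess was 32.9, and 21.3 with the upper 50%, 28.5 with RefSeq ends, 30.3 without X and Y and 30.7 to 35.6 without 1 library. The difference in median distance between genes listed at 0 and expressed genes was 61.1 kb, 38.7 with RefSeq ends, 41.5 without X and Y and 160.1 with the upper 50%. For gaps of 10 to 50 kb the excess of 2 expressed over 0 expressed genes was 37.0, 28.3 with the upper 50% and 37.3 to 39.8 without 1 library. The median difference between neighbours with minus without a region was 0.54 over all such gaps, 1.62 with a pseudocount of 0.1, 0.86 with the upper 50%, 0.12 where a gene was expressed and 0.46 to 0.57 without 1 library. The excess of promoter windows with the letters was 13.8 points, 32.3 with 1 more letter of the core left free and 12.8 to 14.0 without 1 CTCF library. No paired analysis was possible because no result comes from a test between groups. Unknown depth limits what 0 FPKM and an absent peak can show.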
